A study of Mus musculus with 2 samples.

Results

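The G1/S replicating squamous cells of esophageal organoids were 80 cells of the 1099 barcodes in the series, chosen as the cells highest in transcripts of 9 genes of replication onset. They came from 919 barcodes with the esophageal sample tag. Of these, 798 had at most 20% mitochondrial UMIs (unique molecular identifiers, counted transcripts), 485 of those held at least 10000 UMIs, and in 455 the squamous keratins Krt5, Krt14, Krt6a and Krt13 made up at least 75% of these keratins plus the columnar keratins Krt8 and Krt18. The 100 cells highest in Ube2c, Plk1, Aurka, Ccnb1, Cenpf, Prc1, Nusap1 and Birc5 per 10000 UMIs were set aside as mitotic cells. Among the other 355 cells, the 80 with the most UMIs of Ung, Cdc6, Hells, Dtl, E2f1, Mcm10, Mcm3, Exo1 and Ccne2 per 10000 UMIs were the G1/S cells, and 275 remained (the remaining squamous cells).

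The study cultured organoids, 3-dimensional epithelial cultures grown in Matrigel from tissue stem cells, from the esophagus and from the stomach corpus of wild-type C57BL/6 mice, and profiled untreated cells of both by single-cell RNA sequencing. Esophageal medium held EGF, noggin, FGF-10, N-acetyl-L-cysteine, nicotinamide, a TGF-β receptor kinase inhibitor, a ROCK inhibitor and forskolin. Stomach medium held WNT3A and R-spondin1 conditioned medium and gastrin in addition, without forskolin. The methods give an age at euthanasia for the study's mice in general and do not say which mice gave these organoids. Cells of several mice were combined per tissue, and both tissues were marked with lipid-anchored sample tags (MULTI-seq) and run together. With 1 sample per tissue and no replicate, cells are not replicates of a condition, so the values below are summed counts with counting intervals and no test between conditions.

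Squamous epithelium of the esophagus renews from its basal layer, where cells divide, leave the basement membrane and switch to differentiation keratins and cornified envelope proteins. Before DNA replication, ORC, CDC6 and CDT1 load the MCM helicase on origins, and cyclin E with CDK2 and the kinase CDC7 then activate it. Transcripts for these proteins are made in late G1 and early S phase under E2F transcription factors. Transcripts for spindle and chromosome segregation proteins come later, in G2 and M phase, under the MuvB complex, which reads a promoter element called CHR.

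Promoter sequence of RefSeq (GRCm38.p6) was read to show the letters by which these gene classes are commonly told apart. The window searched ran from 250 base pairs before the start site to 50 after. An E2F match was TTTCCCGC, TTTCGCGC, TTTGCCGC or TTTGGCGC on either strand, and a CHR match was TTTGAA on either strand. Of the 7 marker genes with a promoter in the table, 4 held an E2F match (Cdc6, Hells, Dtl and Mcm3) and 0 a CHR match. Of the 8 genes that defined the mitotic cells, 0 held an E2F match and 5 a CHR match. Over all 27025 genes of the table the shares were 2.61% and 20.2%. Among genes with at least 100 UMIs over the G1/S and remaining cells they were 5.32% and 13.75%. Below are the 200 bases before the start site, 5′ to 3′ on the gene's strand with the match in capitals (overlapping matches run together), of 2 markers, of the helicase subunit gene Mcm6, which the selection did not use, and of Ube2c from the mitotic set for contrast. They lie at chr11:98907951-98908150 (plus strand), chr19:38930790-38930989 (plus), chr1:128359706-128359905 (minus) and chr2:164769729-164769928 (plus). The start sites are those of RefSeq, and GENCODE starts can differ. GENCODE starts Cdc6 at chr11:98907801 and Hells at chr19:38930915. By these starts, the Cdc6 bases and part of the Hells bases lie within the gene.
Cdc6: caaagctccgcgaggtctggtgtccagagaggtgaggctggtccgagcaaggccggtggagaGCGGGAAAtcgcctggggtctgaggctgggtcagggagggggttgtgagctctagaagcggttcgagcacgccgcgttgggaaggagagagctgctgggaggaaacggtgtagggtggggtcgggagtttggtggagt
Hells: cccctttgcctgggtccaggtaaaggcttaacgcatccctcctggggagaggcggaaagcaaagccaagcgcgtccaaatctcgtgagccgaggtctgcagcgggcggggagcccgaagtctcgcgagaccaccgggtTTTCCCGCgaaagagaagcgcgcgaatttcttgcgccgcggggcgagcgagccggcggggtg
Mcm6: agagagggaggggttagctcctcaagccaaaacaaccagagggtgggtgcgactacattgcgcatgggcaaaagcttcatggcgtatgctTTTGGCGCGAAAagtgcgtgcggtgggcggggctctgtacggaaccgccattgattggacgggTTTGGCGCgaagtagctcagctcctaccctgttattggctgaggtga
Ube2c: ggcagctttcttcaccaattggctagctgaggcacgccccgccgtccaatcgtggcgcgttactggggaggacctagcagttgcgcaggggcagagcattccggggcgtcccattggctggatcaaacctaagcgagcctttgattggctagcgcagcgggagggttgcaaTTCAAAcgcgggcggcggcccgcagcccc
Mcm6 held the letters TTTGGCGC at 2 places, the first of which overlapped GCGCGAAA, the other strand of TTTCGCGC, and Ube2c the CHR letters, as TTCAAA, 29 bases before the start. A match describes these letters and is not evidence that a factor binds there.

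The G1/S cells held 3609349 UMIs in all, the mitotic cells 5328905 and the remaining squamous cells 10924248. A G1/S cell had 11262 to 93446 UMIs (median 49373), a mitotic cell 10290 to 143918 (median 55675) and a remaining cell 10015 to 169924 (median 36407). Median gene numbers were 5878, 6306 and 5005, and the median mitochondrial share was 3.97% in G1/S, 3.78% in mitotic and 3.86% in remaining cells. Depth thus differed between the sets, and levels are given per 10000 UMIs of a cell or as CPM, counts per 1000000 UMIs of a set. The squamous keratins made up 76.3% to 100% of the 6 keratins in a G1/S cell (median 99.6%). Krt5 ran from 12.6 to 90.1 per 10000 UMIs (median 36.1) and Krt14 from 3.81 to 115 (median 36.7), so every G1/S cell held both basal keratins. With every cell thinned to 10000 UMIs, a Krt14 UMI was seen in 100% of the G1/S cells (exact binomial 95% interval 95.5% to 100%, and 100% unthinned), against 42.4% of the 85 stomach columnar cells of the same run (31.7% to 53.6%, and 98.8% unthinned). Keratin shares chose both sets, and Krt14 is one of the keratins used, so this is a description of both selections. The part of free RNA in these shares was not tested.

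One G1/S cell stood apart. Its squamous keratin share was 76.3%, it held 84615 UMIs and 8209 genes, and 175 of the 236 Krt8 UMIs of the set (74.2%) were its own, beside 53 UMIs of Krt7. Its columnar genes reached 30.7 per 10000 UMIs against a median of 0.954 over the set, and 92.3% of its tag reads were esophageal. A second cell with a keratin share of 88.8% had 10.4 columnar UMIs per 10000. Results were recomputed without both cells, an alternative chosen after the data were seen, and the counts of genes higher and lower became 1008 and 690, against 1029 and 658 with them. The doublet caller Scrublet marked 5 of 1099 barcodes (0.45%), 0 of them among the G1/S cells and 1 among the remaining cells.

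By the selection itself, a G1/S cell carried 4.21 to 15.3 marker UMIs per 10000 (median 7.07), a mitotic cell 0 to 4.30 (median 1.21) and a remaining cell 0 to 4.20 (median 0.343). In whole UMIs these were 6 to 88 (median 34.5), 0 to 28 (median 6) and 0 to 49 (median 1). The last cells taken had 4.29, 4.23 and 4.21 marker UMIs per 10000, and the first ones left out 4.20, 4.18 and 4.13, so the border runs through a continuous range. A G1/S cell showed a median of 7 of the 9 markers (3 to 9), against 4 in mitotic and 1 in remaining cells. At least 5 markers were seen in 74 G1/S cells and in 17 remaining cells, while 93 remaining cells (33.8%) had no marker UMI. The stomach columnar cells had a median of 0.304 marker UMIs per 10000 (0 to 10.7).

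Each marker is described here with the selection it took part in. Ung (chr5:114130386-114139323), the uracil-DNA glycosylase that removes uracil built into new DNA, had 71.5 CPM in G1/S, 1.13 in mitotic and 5.40 in remaining cells. Its level in mitotic cells rested on 6 UMIs and was 0.209 of that in remaining cells. Cdc6, the helicase loading factor, had 32.4, 2.82 and 1.19 CPM in the same order of sets. Ccne2, a cyclin E gene, had 29.7, 3.38 and 2.29 CPM, and the transcription factor gene E2f1 had 59.3, 9.20 and 9.89 CPM. E2f1 was thus near one level in mitotic and remaining cells, while Mcm10 (33.8, 11.5 and 3.02 CPM), which helps to start the fork, and Exo1 (35.5, 12.0 and 3.20 CPM), an exonuclease of repair, were higher in mitotic than in remaining cells. Hells, a chromatin remodeler, had 241, 46.9 and 23.1 CPM, Dtl, which directs CDT1 to degradation, had 56.0, 13.0 and 4.58 CPM, and the helicase subunit gene Mcm3 had 183, 44.3 and 24.4 CPM.

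When each marker was left out and 80 cells were chosen by the other 8, the marker kept a higher level in the chosen cells. E2f1 was 5.53-fold higher than in the rest (4.37 to 7.04, exact 95% interval of a ratio of counts, which covers counting error only, here and below), with 76 of the 80 cells shared. Ung was 11.7-fold higher (8.81 to 15.7; 77 cells shared), Hells 8.52-fold (7.43 to 9.78; 74 shared) and Cdc6 27.2-fold (15.3 to 52.7; 80 shared). The other markers, Mcm3, Dtl, Exo1, Mcm10 and Ccne2, lay between 6.60-fold and 11.7-fold. Most of the cells chosen in this way were those of the main selection, and without Cdc6 all 80 were. These folds are therefore no independent check of the markers.

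Among 8077 genes with at least 100 UMIs over the G1/S and remaining cells, outside the 23 genes of the selection, 1029 (12.7%) were at least 1.5-fold higher in G1/S cells and 658 (8.15%) at least 1.5-fold lower. These shares are the background for the counts below, and since the same contrast chose the cells, nothing is read from a count above it. The median gene stood at a log2 difference of 0.08. With TMM scaling of the sums that median was -0.04, and 778 genes were higher and 905 lower, so that 46.2% of the calls were on the higher side, against 61.0% without it.

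Replication licensing genes were higher almost throughout. Of 12 measured genes outside the selection, 9 were higher and 0 lower, with a median log2 difference of 1.98, and their summed UMIs were 3.76-fold higher (3.59 to 3.94). Per cell the list reached 6.12 to 20.5 UMIs per 10000 in G1/S cells (median 11.3), 0.464 to 10.2 in mitotic cells (median 4.49) and 0 to 12.9 in remaining cells (median 2.0). The lowest G1/S cell thus lay above 247 of the 275 remaining cells. Mcm5 (chr8:75109569-75128439), a helicase subunit gene, had 0.328 to 3.55 UMIs per 10000 in G1/S cells (median 1.37), 0 to 2.17 in mitotic cells (median 0.370) and 0 to 1.91 in remaining cells (median 0), a 7.64-fold difference between G1/S and remaining cells (6.49 to 9.03). An Mcm5 UMI was seen in 100% of G1/S, 80% of mitotic and 27.3% of remaining cells. With every cell thinned to 10000 UMIs, Mcm5 was seen in 72.5%, 30% and 13.1%. Its partner Mcm6 (chr1:128331590-128359664) had 0 to 5.03 per 10000 (median 1.56) in G1/S cells, 0 to 1.29 (median 0.187) in mitotic cells and 0 to 2.26 (median 0) in remaining cells. The sums of Mcm6 were 161, 27.8 and 26.8 CPM, so mitotic cells were at the level of the remaining cells (1.04-fold) while G1/S cells stood 6.01-fold above them (5.22 to 6.94). Cdt1, the loading factor, was 6.18-fold higher, and its inhibitor Gmnn (geminin) 3.62-fold higher. The exceptions were the origin recognition genes Orc4 and Orc3 and the MCM binding protein gene Mcmbp. Orc4 had 26.0 CPM in G1/S and 27.6 in remaining cells, Orc3 15.0 and 11.9, and Mcmbp 31.6 and 23.1. Another origin recognition gene, Orc6, had a median of 1.19 UMIs per 10000 in G1/S and 0.230 in remaining cells.

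**Figure D1:**
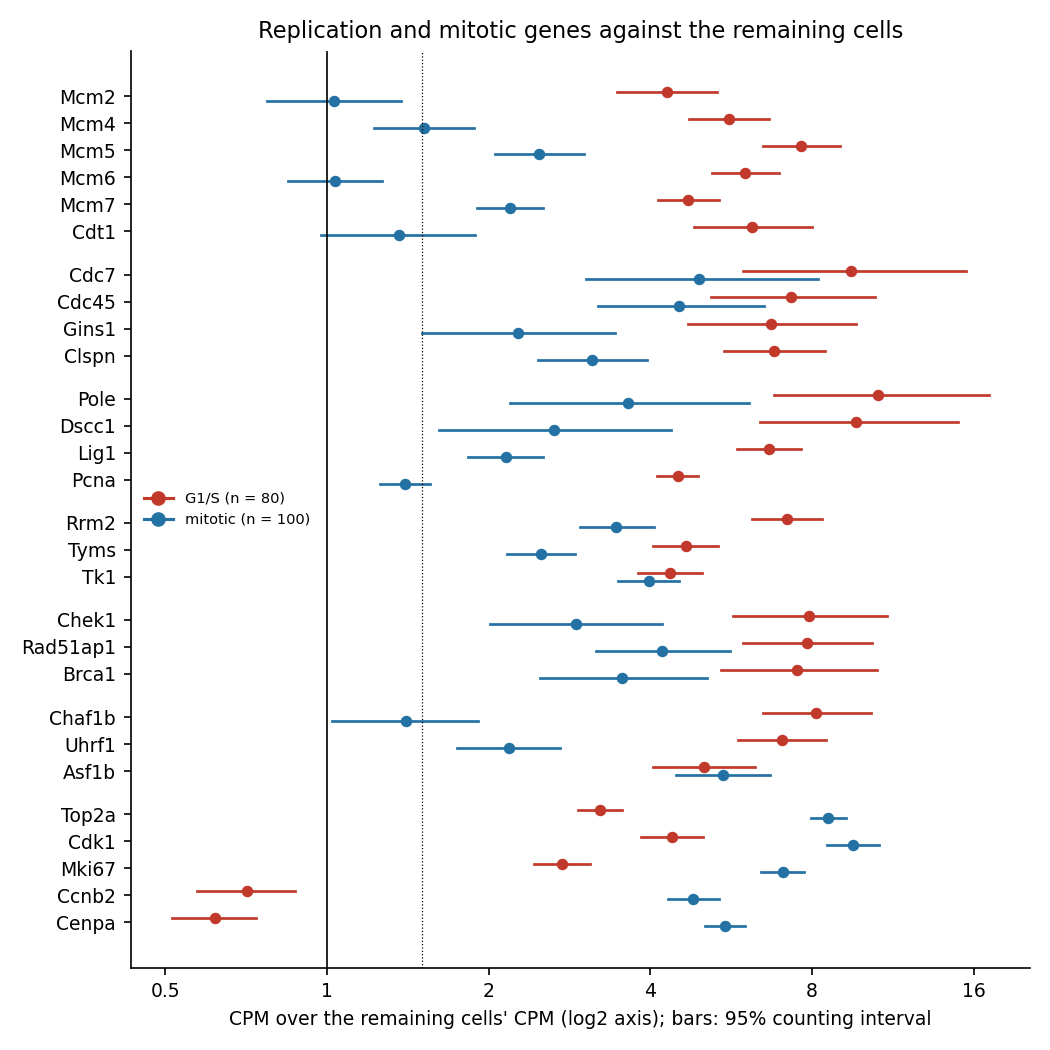
Fold over the remaining squamous cells (CPM over CPM, log2 axis) for G1/S cells (red, n = 80) and mitotic cells (blue, n = 100), with exact 95% counting intervals and a dotted line at 1.5-fold. Mcm6 sits at 6.01-fold in G1/S and 1.04-fold in mitotic cells, while Top2a, Cdk1, Mki67, Ccnb2 and Cenpa, at the bottom, are higher in mitotic than in G1/S cells.

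All 10 measured genes of origin firing and the active helicase were higher in G1/S cells (median log2 difference 2.37, sum 4.08-fold, 3.83 to 4.35). With 200 mitotic cells set aside in place of 100, 6 genes reached 100 UMIs and all 6 were higher (median 2.26). Cdc7, the kinase that activates loaded helicases, had 21.6 CPM in G1/S, 11.3 in mitotic and 2.29 in remaining cells (9.44-fold between G1/S and remaining, 5.95 to 15.5). Cdc45 and Gins1, parts of the active helicase, were 7.31-fold and 6.70-fold higher, and Timeless and Clspn, which protect the fork, 6.68-fold and 6.80-fold. Dbf4, the activating subunit of CDC7, was 2.19-fold higher than in remaining cells but 0.41 of its level in mitotic cells.

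Genes of the DNA polymerases, the sliding clamp and Okazaki fragment joining were higher in 26 of 27 cases, with 0 lower (median log2 difference 1.96, sum 2.81-fold, 2.73 to 2.90). Pcna, the clamp, reached 0.421 to 7.67 UMIs per 10000 in G1/S cells (median 3.32), 0 to 5.16 in mitotic cells (median 0.760) and 0 to 5.46 in remaining cells (median 0.453). The ranges overlapped. A Pcna UMI was seen in 100% of G1/S, 90% of mitotic and 74.2% of remaining cells. With every cell thinned to 10000 UMIs these shares were 95%, 56% and 42.9%. The sums of Pcna were 348, 108 and 77.4 CPM. Lig1, the ligase of the lagging strand, had 0 to 5.33 per 10000 in G1/S cells (median 1.64), 0 to 3.64 in mitotic cells (median 0.459) and 0 to 5.72 in remaining cells (median 0), a 6.66-fold difference of the sums between G1/S and remaining cells (5.81 to 7.64). Pole, the leading strand polymerase (10.6-fold, 6.79 to 17.1), and Dscc1, a subunit of a clamp loader (9.67-fold, 6.40 to 15.0), had wider intervals, resting on 91 and 99 UMIs in G1/S cells. Pold4, a small subunit of polymerase delta, was the member within 1.5-fold, with 127 CPM in G1/S and 166 in remaining cells.

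Nucleotide synthesis followed, with 18 of 21 genes higher and 0 lower (median log2 difference 1.34, sum 2.21-fold, 2.15 to 2.27). Rrm2, the ribonucleotide reductase subunit whose level limits dNTP supply, had 0 to 4.39 UMIs per 10000 in G1/S cells (median 1.46), 0 to 3.91 in mitotic cells (median 0.619) and 0 to 3.01 in remaining cells (median 0), and its sum was 7.18-fold higher than in remaining cells (6.19 to 8.36). Tyms, of thymidylate synthesis, was 4.65-fold higher, and Umps, of pyrimidine synthesis, 3.50-fold. Dut, which removes dUTP from the pool, was 3.55-fold higher (3.28 to 3.85). Tk1, the salvage kinase, was 4.35-fold higher than in remaining cells but level with mitotic cells, at 142 CPM in G1/S and 130 in mitotic cells (1.10-fold, 0.976 to 1.23).

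Among G1/S regulators, 15 of 22 measured genes were higher and 0 lower (median log2 difference 1.13). E2f8, a repressive E2F, was 6.93-fold higher (4.84 to 10.1), Ccne1 4.85-fold, Fbxo5, an inhibitor of the anaphase promoting complex, 4.84-fold, Cdca7, an E2F target that works with HELLS, 4.34-fold, Skp2 3.74-fold and Rbl1 3.29-fold. The D cyclins, which receive growth factor signals, differed less: Ccnd1 had 351 CPM in G1/S and 258 in remaining cells (1.36-fold), and Ccnd2 481 and 360 (1.33-fold). Of 6 measured CDK inhibitors, 2 were higher and 2 lower. Cdkn2b (chr4:89306299-89311039), which encodes p15, had 0 to 0.622 UMIs per 10000 in G1/S cells (median 0), 0 to 1.39 in mitotic cells (median 0.187) and 0 to 8.60 in remaining cells (median 0.213). Its sums were 7.76, 28.5 and 49.8 CPM, so remaining over G1/S cells gave 6.42-fold (4.39 to 9.75), with 4.96% of the remaining cells' UMIs in their top cell. Cdkn1a, which encodes p21, had 103, 179 and 228 CPM (0.451-fold between G1/S and remaining cells, 0.403 to 0.503). That difference was -0.45 on the log2 scale with 120 G1/S cells and -0.35 among cells with at most 10% mitochondrial UMIs, both within 1.5-fold. Cdkn2c (2.69-fold) and Cdkn2a (1.68-fold) were the higher ones, and neither passed when no mitotic cell was set aside (log2 differences 0.54 and 0.52). Cdkn2a also missed 1.5-fold with 40 G1/S cells (0.02) and with 120 (0.54), and turned to -0.23 with 200 mitotic cells set aside.

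**Figure D2:**
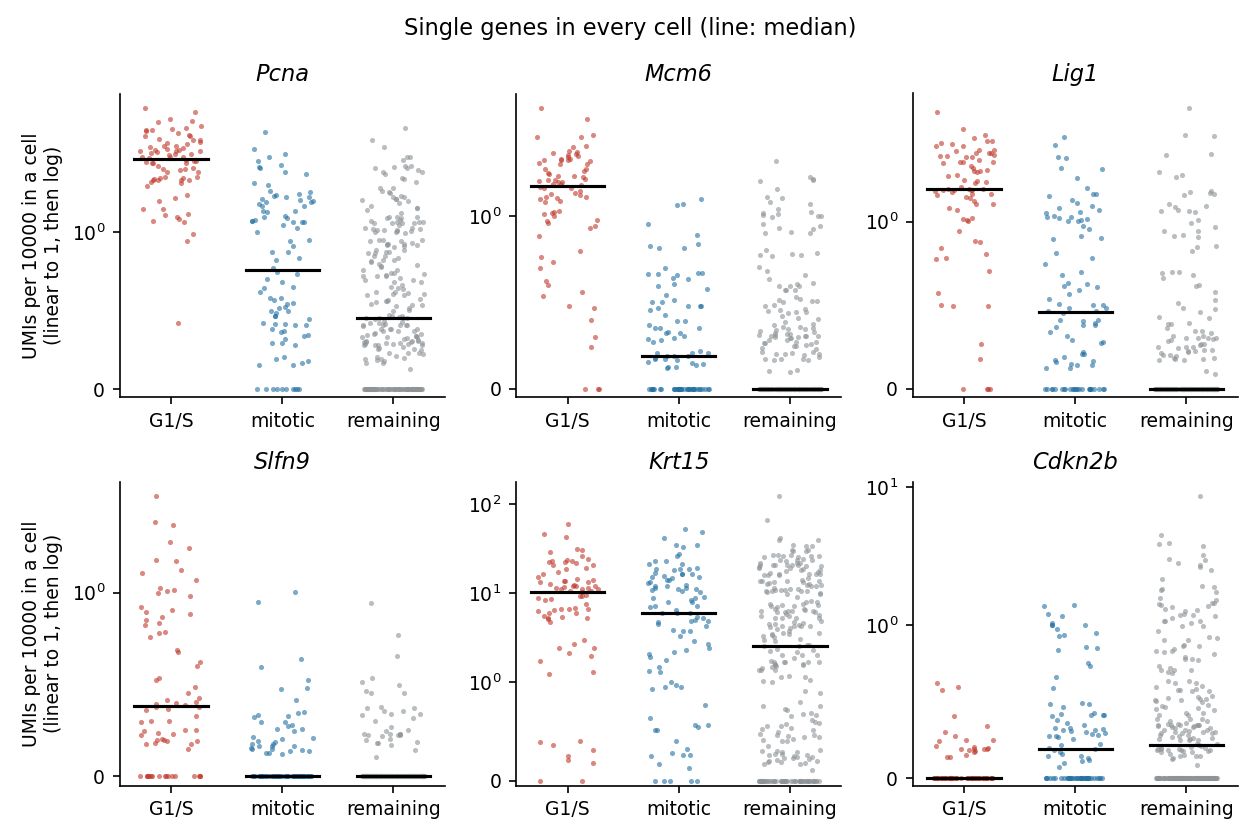
UMIs per 10000 (linear to 1, then log) of 6 genes in every G1/S (red), mitotic (blue) and remaining (grey) cell, with a line at the median. Pcna has medians of 3.32, 0.760 and 0.453, Krt15 of 10.4, 5.96 and 2.52, and Cdkn2b is at most 0.622 in G1/S cells but reaches 8.60 in remaining cells.

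Genes of fork repair and the S phase checkpoint were higher in 14 of 15 cases and lower in 0 (median log2 difference 2.09, sum 3.97-fold, 3.73 to 4.22). With 200 mitotic cells set aside 4 genes reached 100 UMIs and all 4 were higher (median 1.60). Chek1, the checkpoint kinase, was 7.88-fold higher (5.70 to 11), with 38.2 CPM in G1/S, 14.1 in mitotic and 4.85 in remaining cells. Rad51ap1 and Brca1, of homologous recombination, were 7.81-fold and 7.51-fold higher, the helicase gene Brip1 5.81-fold and Rad18, a ubiquitin ligase at stalled forks, 4.68-fold. Atrip, which brings ATR to single-stranded DNA, was the member within 1.5-fold (9.14 CPM in G1/S and 6.96 in remaining cells). The other 12 of the 27 genes on this list had fewer than 100 UMIs.

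Genes that rebuild chromatin behind the fork were higher in 18 of 20 cases, with 0 lower (median log2 difference 1.76). Chaf1b, a subunit of the histone chaperone CAF-1, had 77.6 CPM in G1/S, 13.3 in mitotic and 9.52 in remaining cells (8.15-fold between G1/S and remaining, 6.48 to 10.3). Uhrf1, which guides DNA methylation to new strands, had 0 to 2.91 UMIs per 10000 in G1/S cells (median 0.925), 0 to 1.21 in mitotic cells (median 0.200) and 0 to 1.40 in remaining cells (median 0). Its sum was 7.03-fold higher than in remaining cells, that of the methyltransferase Dnmt1 3.85-fold and that of Slbp, which binds the histone mRNA stem-loop, 3.66-fold. Asf1b, another histone chaperone, was 5.02-fold higher than in remaining cells and 0.921 of the mitotic level (0.778 to 1.09).

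Replication-dependent histone genes, listed by symbol alone (Hist1h, Hist2h, Hist3h and Hist4h) and not checked one by one, were split. Their mRNAs mostly lack the poly(A) tail on which this library was primed, and 17 of 67 genes reached 100 UMIs, of which 13 were higher and 3 lower in G1/S cells. Hist1h1b had 242 CPM in G1/S, 278 in mitotic and 66.8 in remaining cells, and Hist1h2ap 161, 237 and 52.5. The 3 lower ones were Hist1h2bc (0.0859-fold, 0.0656 to 0.111), Hist1h1c (17.7 CPM in G1/S and 64.8 in remaining cells) and Hist3h2a (4.99 and 18.9). In sum, G1/S cells had 1093 CPM of histone transcripts, mitotic cells 1794 and remaining cells 717. Hist1h2ap missed 1.5-fold with 40 G1/S cells (log2 difference 0.14), and with no mitotic cell set aside Hist1h2ap (0.53) and Hist1h2bj (0.44) both did. Of the histone genes measured, 5 of 17 were higher with 40 G1/S cells, 3 of 29 with 0 and 3 of 8 with 200 mitotic cells set aside.

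Transcripts of mitosis were present in the G1/S cells although the cells highest in 8 of them had been set aside. Over 41 mitotic genes outside the selection a G1/S cell had 1.98 to 66.6 UMIs per 10000 (median 14.6), a mitotic cell 30.4 to 130 (median 59.6) and a remaining cell 0.334 to 70.1 (median 3.09). Of 39 measured genes, 30 were higher than in remaining cells and 1 lower (median log2 difference 1.09). Cdk1, the mitotic kinase, had 153 CPM in G1/S, 332 in mitotic and 34.9 in remaining cells. Top2a, which untangles chromosomes, had 0 to 16 UMIs per 10000 in G1/S cells (median 1.77), 0 to 14.9 in mitotic cells (median 6.18) and 0 to 12.3 in remaining cells (median 0). Cenpa, the centromeric histone, was the 1 lower gene, with 40.7 CPM in G1/S, 363 in mitotic and 66.0 in remaining cells, and Ccnb2, a mitotic cyclin, had 31.0, 210 and 43.8 CPM. This list depended on how many mitotic cells were set aside. With none set aside, 0 of its genes were higher in G1/S cells and its median log2 difference was -0.48, with Kif11 at -0.14 and Top2a at -0.07. With 200 set aside 6 of 10 measured genes were higher (median 1.39), and with 40 G1/S cells 12 of 39 (median 0.37).

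**Figure D3:**
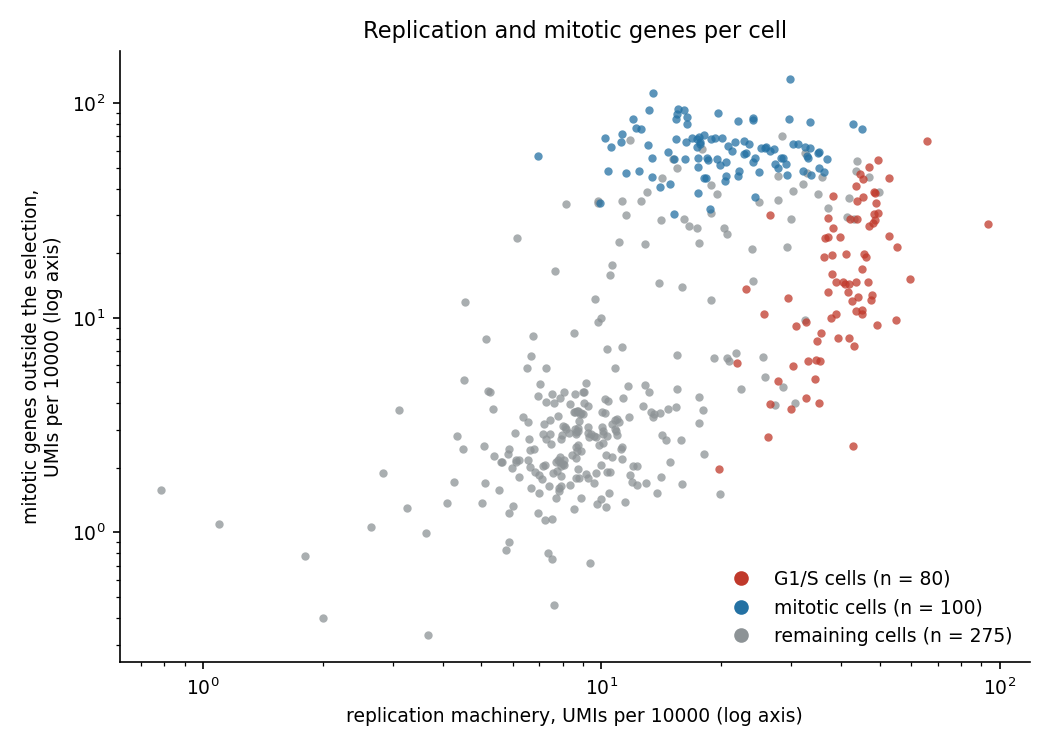
Each cell by its UMIs per 10000 of the replication machinery (licensing, firing and polymerase lists, horizontal, log axis) and of mitotic genes outside the selection (vertical, log axis). G1/S cells (red, n = 80) have a machinery median of 41.9, mitotic cells (blue, n = 100) of 19.8 and remaining cells (grey, n = 275) of 9.29, and the G1/S cells spread from 1.98 to 66.6 on the mitotic axis.

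Licensing, firing and polymerase genes together made up 19.8 to 93.8 UMIs per 10000 in G1/S cells (median 41.9), 6.96 to 45.2 in mitotic cells (median 19.8) and 0.786 to 49.8 in remaining cells (median 9.29). The G1/S median was reached by 2 mitotic and 6 remaining cells, and 240 remaining cells lay below the lowest G1/S cell. Set directly against mitotic cells, 409 of 6838 measured genes (5.98%) were at least 1.5-fold higher in G1/S cells and 512 (7.49%) lower. With 200 mitotic cells set aside 228 were higher. Of licensing genes 8 of 12 were higher and 0 lower (median log2 difference 1.21), of polymerase and clamp genes 19 of 28 and 0 (0.92), and of nucleotide synthesis genes 16 of 21 and 0 (0.90). Of 11 firing genes 9 were higher and 1, Dbf4, lower. Other lists separated the sets less. Of fork repair genes 8 of 16 were higher and 0 lower, of G1/S regulators 9 of 21 and 3, and of chromatin replication genes 7 of 20 and 1. In the same order, their summed UMIs were 1.48-fold, 1.015-fold and 0.871-fold of the mitotic level. In the other direction, 41 of 41 mitotic genes outside the selection were lower in G1/S cells (median -1.67), and so were 14 of 20 histone genes, with 1 higher. Replication markers chose the G1/S cells and mitotic genes the mitotic cells. The counts of this comparison thus describe the selection, and nothing is read from them. CDK inhibitors were lower in 4 of 6 cases, among them Cdkn2d (34.1 CPM in G1/S and 106 in mitotic cells) and Cdkn1b, which encodes p27 (25.2 and 59.7 CPM). With 200 mitotic cells set aside and compared, 5 of 12 licensing, 1 of 28 polymerase, 3 of 21 nucleotide synthesis and 1 of 12 firing genes were higher. Only 40 of the 80 cells then chosen were G1/S cells of the main selection. The other G1/S cells of the main selection were among the 200 set aside. With 100 set aside, Mcm6 was 5.81-fold higher (4.84 to 7.0), and Chaf1b 5.82-fold (4.47 to 7.67).

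Mitotic cells, set against the same remaining cells, had 863 of 8371 genes higher (10.3%) and 514 lower (6.14%), and both comparisons share the remaining cells. Mitotic genes chose the mitotic cells, so the values of such genes there go with the selection. Side by side, the median log2 difference from the remaining cells was 1.98 in G1/S and 0.46 in mitotic cells for licensing, 2.37 and 1.29 for firing, 1.96 and 0.91 for polymerases, and 1.34 and 0.38 for nucleotide synthesis. For mitotic genes outside the selection it was 1.09 in G1/S and 2.83 in mitotic cells, and for measured histone genes 1.26 and 2.17.

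**Figure D4:**
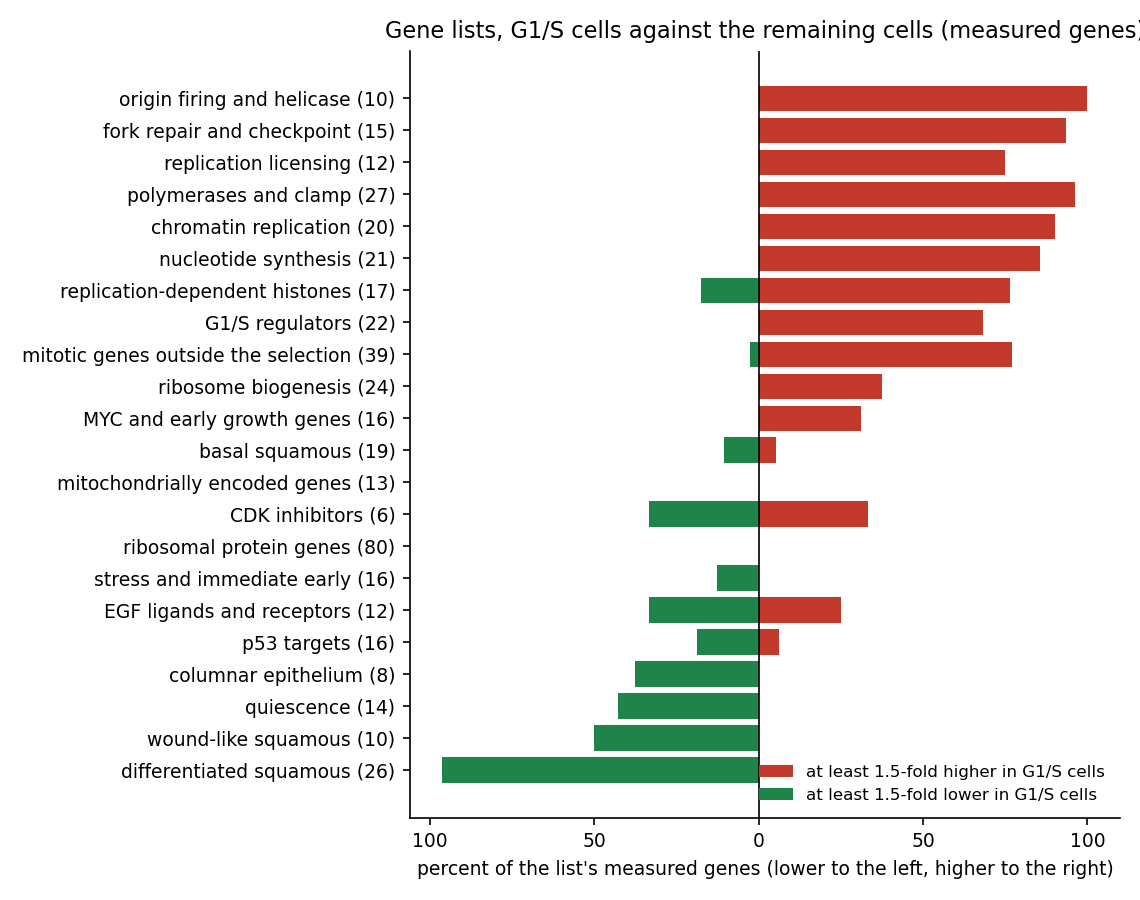
Share of each list's measured genes (number in brackets) at least 1.5-fold higher (red, to the right) or lower (green, to the left) in G1/S than in remaining squamous cells. All 10 firing genes are on the higher side and 25 of 26 differentiation genes on the lower side, against 12.7% and 8.15% of all measured genes.

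By name, the highest genes outside the selection were nearly all of DNA replication and repair. The markers that chose the cells are genes of the same kind, so nothing is read from this. Beside Pole, Mcm5, Chaf1b, Dscc1, Rrm2, Cdc7, Rad51ap1, Uhrf1, Lig1, Chek1, Clspn and Brca1, the 15 with the highest lower bound held Aunip, an Aurora A binding protein (11.3-fold, 7.26 to 18.1), Fignl1, of recombination repair (7.46-fold), and Slfn9 (chr11:82978390-82991830), a Schlafen family gene. Slfn9 had 0 to 3.84 UMIs per 10000 in G1/S cells (median 0.385), 0 to 1.00 in mitotic cells (median 0) and 0 to 0.942 in remaining cells (median 0). Its sums were 59.8, 11.3 and 5.13 CPM, 11.7-fold between G1/S and remaining cells (8.67 to 16), with 8.33% of the G1/S cells' UMIs in 1 cell.

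The G1/S cells were squamous cells with basal genes near the level of the remaining cells and little differentiation. Of 19 measured basal genes, 1 was higher and 2 lower (median log2 difference 0.20), and the list had medians of 58.4 UMIs per 10000 in G1/S, 53.5 in mitotic and 63.0 in remaining cells. Trp63, the master regulator of stratified epithelium, had 121 CPM in G1/S, 133 in mitotic and 109 in remaining cells. Krt15, a basal keratin, was the higher one, with 0 to 60.7 UMIs per 10000 in G1/S cells (median 10.4), 0 to 53 in mitotic cells (median 5.96) and 0 to 123 in remaining cells (median 2.52). Its difference of 1.66-fold (1.6 to 1.73) became 0.58 on the log2 scale with 120 G1/S cells and 0.35 against the remaining cells with basal genes at or above the G1/S median, both under 1.5-fold. The 2 lower genes were Sfn, which encodes 14-3-3 sigma (705 CPM in G1/S and 1451 in remaining cells), and Lama3, a laminin chain (21.9 and 33), whose difference was within 1.5-fold under several alternatives.

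Differentiation genes were lower in 25 of 26 measured cases (median log2 difference -2.81). The list had 4.96 to 73.8 UMIs per 10000 in G1/S cells (median 15.4), 5.59 to 264 in mitotic cells (median 15.7) and 1.86 to 1342 in remaining cells (median 24.2), so that 196 of the 275 remaining cells reached the G1/S median and 67 exceeded the highest G1/S cell. Sprr2f (chr3:92365187-92366442), a cornified envelope precursor, had 0 to 3.36 UMIs per 10000 in G1/S cells and 0 to 891 in remaining cells, with a median of 0 in both. The sums were 8.87 CPM in G1/S, 24.4 in mitotic and 1404 in remaining cells. Remaining over G1/S cells gave 158-fold (112 to 232), or 118-fold without the remaining cell that held 26.2% of these UMIs. Psca (chr15:74714839-74717069), which encodes a surface protein, had 18.3 CPM in G1/S and 2439 in remaining cells (133-fold over G1/S, or 104-fold without its top cell). It was not particular to squamous cells, with a median of 3.35 UMIs per 10000 in stomach columnar cells and 0 in remaining cells. Sprr1a, Cnfn and Crct1, all of the cornified layer, had 9.97, 11.4 and 9.42 CPM in G1/S and 557, 359 and 344 CPM in remaining cells. The stress keratins Krt16 and Krt6b had 120 and 26.3 CPM in G1/S and 1039 and 376 CPM in remaining cells. The suprabasal keratin Krt13, which the selection used in its keratin share, ran from 0.182 to 40.7 UMIs per 10000 in G1/S cells (median 8.55) and to 436 in remaining cells (median 18.6). Lor was the differentiation gene within 1.5-fold, with 31 and 95 UMIs. Clca3b had 0 UMIs in G1/S cells and 367 in remaining cells, 51.5% of them in 1 cell, which makes it at least 40.4-fold lower at a floor of 3 counts over the set. The chemokine gene Cxcl2 (1.66 CPM in G1/S and 101 in remaining cells) turned round with 200 mitotic cells set aside, to a log2 difference of 0.99.

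Most growth genes stayed within 1.5-fold. Of 24 measured ribosome biogenesis genes, 9 were higher and 0 lower (median log2 difference 0.55), with 4 to 15 higher over the alternatives, and the list had medians of 53.2 UMIs per 10000 in G1/S, 39.9 in mitotic and 39.3 in remaining cells. Nolc1, a nucleolar chaperone, had 0 to 4.44 UMIs per 10000 in G1/S cells (median 1.24), 0 to 2.61 in mitotic cells (median 0.541) and 0 to 2.78 in remaining cells (median 0.453), and was 2.26-fold higher than in remaining cells (2.0 to 2.54). Nop56, of the box C/D snoRNP, was 1.87-fold higher. Against mitotic cells 11 of the 24 genes were higher and 0 lower (median 0.56). Of 16 MYC targets and early growth genes, 5 were higher, Ranbp1 (2.19-fold), Srm (1.85-fold), Cdk4 (1.66-fold), Hspd1 (1.66-fold) and Tfrc (1.61-fold), the last within 1.5-fold under several alternatives. Ribosomal protein genes (80 measured) and mitochondrially encoded genes (13) had 0 genes past 1.5-fold in either direction.

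Of 12 measured EGF and FGF ligand and receptor genes 3 were higher and 4 lower. Nrg1, a ligand of ERBB3, had 152 CPM in G1/S, 80.3 in mitotic and 82.3 in remaining cells, and the receptor genes Fgfr2 and Fgfr3 were 1.90-fold and 1.51-fold higher. The ligand genes Epgn, Hbegf and Tgfa and the receptor gene Erbb3 were lower, at 3.88, 134, 15.0 and 16.6 CPM in G1/S and 21.9, 215, 23.5 and 30.2 CPM in remaining cells. Of these, Nrg1, Fgfr2, Fgfr3, Hbegf, Erbb3 and Tgfa came within 1.5-fold under at least 1 alternative, and Epgn had 38.1% of the remaining cells' UMIs in 1 cell. Quiescence genes were lower in 6 of 14 cases, led by Ccng2 (5.82 CPM in G1/S and 20.2 in remaining cells) and the demethylase gene Kdm5b (29.4 and 75.4 CPM), and 0 were higher. Of 16 p53 targets 1, Sesn1, was higher and 3 lower, among them Perp, of desmosomes (370 and 719 CPM), with 1 to 8 lower over the alternatives. Of 16 stress genes 0 were higher and 2 lower, Dusp1 and Zfp36.

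Most markers of other cell types had no UMI. In the G1/S cells, 6 of 7 fibroblast, 5 of 6 smooth muscle, 6 of 6 endothelial, 5 of 5 erythroid, 5 of 6 Langerhans and melanocyte, 5 of 7 neural and 11 of 12 immune markers had no UMI, Ptprc among the last, and the 106 immune UMIs were all of Cd68, a lysosomal protein gene (29.4 CPM in G1/S, 23.6 in mitotic and 35.1 in remaining cells). The 47 neural UMIs were of Tubb3 (7.20 CPM in G1/S and 13.2 in remaining cells) and Map2 (5.82 and 2.29 CPM), both cytoskeletal genes. Columnar genes summed to 235 CPM in G1/S, 205 in mitotic and 347 in remaining cells, against 7438 in stomach columnar cells. Of 8 measured columnar genes, 3 were lower, Gkn3, Pigr and Cldn18, with 84.0%, 84.8% and 60.9% of the remaining cells' UMIs in 1 cell. Without that cell, all 3 were higher in G1/S cells. The G1/S cells with 30.7 and 10.4 columnar UMIs per 10000 were kept here, so only the remaining cells lost their top cell.

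In order of the selection score, gene groups changed at different places. Replication machinery summed to 4233 and 4031 CPM in the upper and lower 40 G1/S cells, and to 2650, 1147, 892, 810.2 and 796 CPM in 5 equal parts of the remaining cells from high to low score. The highest part of the remaining cells thus lay between the G1/S cells and the others. Mitotic genes outside the selection had 1490 and 2405 CPM in the upper and lower G1/S cells and 2276 in that part, then 931, 491, 539 and 453. Differentiation genes had 1672, 1684 and 2101 CPM in the first 3 of these bins and 5276 to 22144 in the other 4. Basal genes kept between 6385 and 7959 CPM in all 7 bins. Across the 7 bins, ribosome biogenesis genes had 5919, 5178, 4951, 4053, 3857, 3170 and 3282 CPM.

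**Figure D5:**
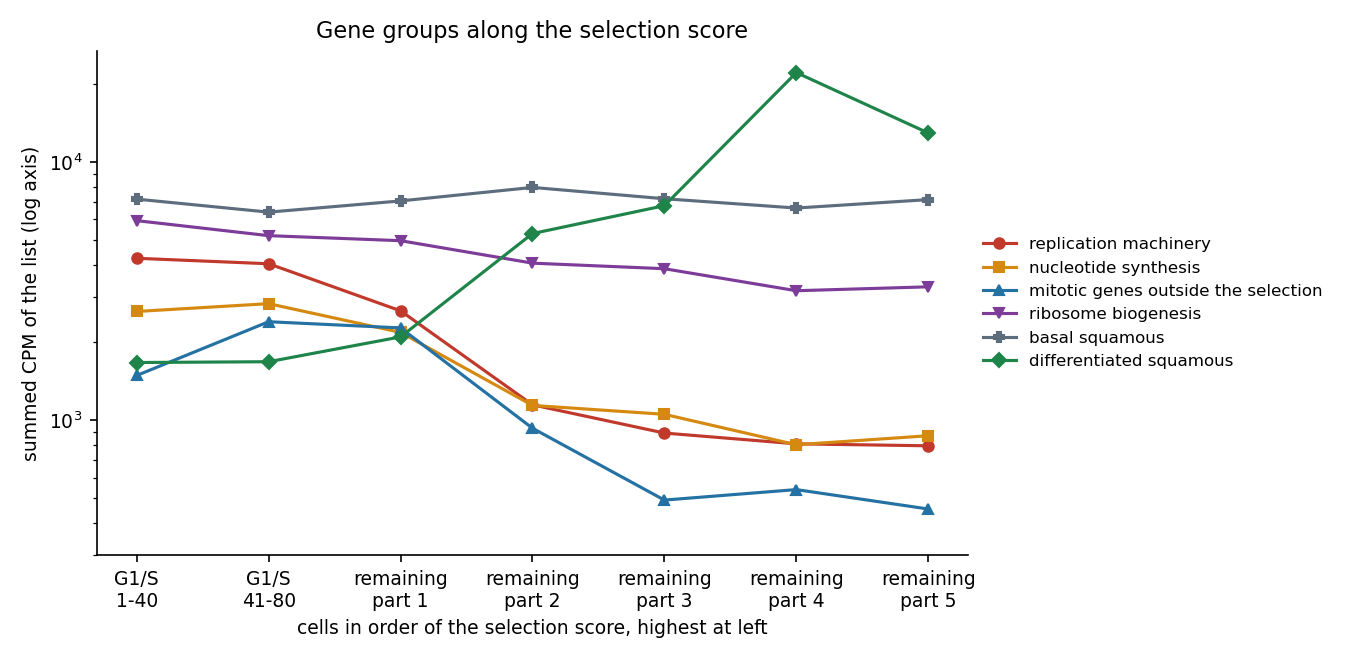
Summed CPM (log axis) of 6 lists in G1/S cells ranked 1 to 40 and 41 to 80 by the selection score and in 5 parts of the 275 remaining cells, 55 cells each. Replication machinery (red) has 4233 CPM at the left and 796 at the right, differentiation genes (green) 1672 and 12929, and basal genes (grey) stay between 6385 and 7959.

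The 80 cells varied among themselves. With each cell thinned to 10000 UMIs, histone and mitotic genes outside the selection correlated over the 80 cells (Pearson 0.64, Spearman 0.69), as did replication machinery and mitotic genes (0.44 and 0.48). The markers correlated weakly with machinery (0.21 and 0.11) and inversely with histones (-0.29 and -0.34). These are descriptions over cells of 1 library that share its depth, and sparse counts lower such values. When the 80 cells were divided at the median of the mitotic genes, with 15 to 66 mitotic UMIs of 10000 in the upper 40 cells and 1 to 15 in the lower 40, histones were 4.60-fold higher in the upper cells (1800 and 391 CPM). Licensing genes were alike (1157 and 1108 CPM, 1.04-fold), and the 9 markers together were 0.899-fold. Ung had 46.7 CPM in the upper and 96.0 in the lower cells (0.487-fold, 0.371 to 0.635), Ccnd1 262 and 439, and Ccnd2 346 and 614. By contrast, Fbxo5 had 76.2 CPM in the upper and 9.93 in the lower cells (7.67-fold, 4.68 to 13.3), Pclaf, a PCNA-associated factor, 639 and 150.1 (4.26-fold), Rrm2 228 and 104 (2.20-fold) and Clspn 104 and 52.4 (1.97-fold). Median depth was 47492 UMIs in the upper and 49830 in the lower cells. CDK inhibitors summed to 324 CPM in the upper and 146 in the lower cells (2.22-fold). Basal genes had 6102 and 7439 CPM, and differentiation genes 1686 and 1669.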

How the data were processed

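Per the labels and methods, cells of esophageal and stomach organoids were tagged by MULTI-seq, pooled and run on 10x 3′ v3.1 chemistry. The authors aligned reads to mm10 with Cell Ranger 3.1.0 and deposited raw UMI counts per gene and barcode, a sample tag call for each barcode (deMULTIplex) and tag read counts. The counts were used as deposited. Such counts hold only RNA primed on poly(A), PCR copies are collapsed, and free RNA is not removed. Feature IDs in the deposited table did not annotate genes, so symbols were used. GENCODE M21 and RefSeq (GRCm38.p6) gave gene coordinates and promoter sequence.

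Cells were chosen by the stated thresholds on counts, with no clustering and no doublet removal beyond the authors' tag calls and the keratin share. UMIs were summed over each set and scaled to CPM. Folds carry exact conditional binomial 95% intervals, which take counts as independent. Genes with at least 100 UMIs over both sets were measured, and 1.5-fold was the mark for higher or lower. A floor of 3 counts was used for sums of 0. For shares of cells, each cell was thinned to 10000 UMIs, which left out no cell of the sets. Intervals and calls were tested on simulated counts drawn independently for each gene. Such counts hold no unevenness between cells, so the simulation cannot show how the intervals behave with it. The members, lists and marks were chosen with earlier results of these data known. Genes named are the 9 markers, up to 6 genes of each list with the largest log2 difference, the 15 genes with the highest lower bound and the 15 with the lowest upper bound of the fold, and list genes needed to explain counts of 5 or fewer. Pcna, Mki67, Ccnb2, Ccnd1, Ccnd2, Trp63, Krt7 and Pclaf were named after their values were seen. Some genes that the rule named are not reported here. Alternatives changed the number of cells chosen or set aside, filters, scaling, weighting, doublet marks and the set compared with. Tools were Python 3.11.15, numpy 2.4.6, scipy 1.17.1, pandas 2.3.3, scanpy 1.11.5 (Scrublet) and matplotlib 3.10.9.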

Additional observations from a re-analysis of the deposited data

How the results depend on the processing

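Of 157 genes named by rule, 128 were past 1.5-fold between G1/S and remaining cells, and 97 of these stayed past it under each of the 14 alternatives in which they were measured, while 31 came within it in at least 1 and 5 changed sign. The 9 markers are among the 128, and since they chose the cells, their calls follow from the selection. Counts over all genes ran from 712 to 1814 higher and from 462 to 1256 lower. With no mitotic cell set aside, 0 mitotic genes outside the selection were higher and their median log2 difference was -0.48, with Kif11 at -0.14 and Top2a at -0.067. With 200 set aside, fewer genes were measured, and 6 of 6 firing, 4 of 4 fork repair and 6 of 10 mitotic genes outside the selection were higher (medians 2.26, 1.60 and 1.39), the log2 difference was -0.23 for Cdkn2a, 0.0020 for Tgfa and 0.99 for Cxcl2, and against mitotic cells 228 genes were higher, with medians of -0.0053 for polymerases and 0.50 for differentiation genes. In that setting 40 of the 80 chosen cells were G1/S cells of the main selection. The other G1/S cells of the main selection were among the 200 set aside and compared. The cause was not tested. With 40 G1/S cells, 12 of 39 mitotic genes outside the selection were higher. With at least 20 UMIs per gene more genes were measured, which gave 1814 higher and 1256 lower, 26 of 27 fork repair genes higher, and against mitotic cells 1022 higher and 1053 lower. TMM scaling moved the median gene by -0.12.

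No paired analysis was possible because each tissue has 1 sample. Precision is limited by counting: a count of 0 in the G1/S cells allows 0.831 CPM at the floor of 3 counts (1.02 CPM by the exact interval), and genes under 100 UMIs were not read. All cells came from 1 library, so no value carries a spread between cultures.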
